A study of Mus musculus with 86 samples.

Results

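A set of 10 genes that mark thalamic neurons or their progenitors were followed across dissections of the prefrontal cortex, hippocampus and hypothalamus of wild house mice. The 10 genes were Tcf7l2, Prkcd, Ramp3, Rgs16, Lef1, Synpo2, Plekhg1, Rora, Zic1 and Zic4. They were taken by symbol from the 35275 genes of the count table, and all 10 were found and kept in every fit. The mice were adult, free-living animals of 1 barn population, caught outside the breeding season and not manipulated. They were chosen from the tails of the distribution of social network size, which the sample labels give as low or high gregariousness. By the authors' account, large network size was less extreme in the sampled males than in the females. Each region was sampled from 7 females with large network size, 7 females with small network size and 7 males with large network size. The males with small network size numbered 8 in the prefrontal cortex and hippocampus and 7 in the hypothalamus. This gave 86 libraries of 29 animals, 28 of which had all 3 regions. A dissection of the thalamus itself was not analysed here.

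The thalamus relays sensory and motor signals to the cortex, and it lies below the hippocampus and above the hypothalamus. Thalamic relay neurons are made by a progenitor zone that depends on Wnt signals, in which beta-catenin acts through transcription factors of the TCF/LEF family. TCF7L2 and LEF1 are the members of that family that persist in thalamic neurons, and TCF7L2 is used as a general marker of postmitotic thalamic cells. Prkcd encodes protein kinase C delta, which is abundant in sensory relay nuclei, and Rora encodes a nuclear receptor found in the same nuclei. Ramp3 encodes a co-receptor of calcitonin family receptors, and Rgs16 encodes a regulator that shortens G protein signalling. Synpo2 encodes an actin-binding protein, and Plekhg1 encodes a guanine nucleotide exchange factor. Zic1 and Zic4 are neighbouring genes for zinc finger transcription factors. They are active in parts of the thalamus, habenula, septum, hypothalamus and cerebellum, and Zic genes are also active in the meninges. None of the 10 genes is exclusive to the thalamus.

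The labelled regions were checked against neuronal markers, with levels in CPM, the count of a gene relative to the total of its library, corrected for library composition. The median of Avp, the vasopressin gene, was 467 CPM in the hypothalamus, 1.95 CPM in the hippocampus and 0.748 CPM in the prefrontal cortex. Tbr1, a marker of cortical projection neurons, had medians of 201 CPM in the prefrontal cortex, 81.8 CPM in the hippocampus and 12.8 CPM in the hypothalamus. A list of hippocampal principal neuron genes had a median sum of 151 CPM in the hippocampus, above both other regions. The regions therefore carried the markers of their labels. Total counts per library ran from 33711824 to 81865801, so that a gene at 1 CPM was covered by more than 30 reads. Over the libraries of a region, Pearson's r between a gene's level and the total count was -0.385 to 0.396 for the cortical, -0.185 to 0.219 for the hippocampal and 0.0473 to 0.277 for the hypothalamic libraries. The hypothalamus of male 6, an animal with small network size, stood apart from the other libraries in the level of these genes. Results are given with and without it for the network-size comparison of hypothalamic males and for its difference between the sexes. The same holds for the median r of hypothalamic gene pairs. Hypothalamic correlations within groups and with genes outside the set include it. The dissections are bulk tissue, so more cells of a type and more RNA per cell cannot be told apart.

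In the mouse assembly GRCm38 with the GENCODE vM21 annotation, all 10 are protein-coding genes. Tcf7l2 (ENSMUSG00000024985) spans chr19:55741820-55933654 on the plus strand and Lef1 spans chr3:131110471-131224356 on the plus strand. Prkcd lies at chr14:30595354-30626210 on the minus strand, Rora at chr9:68653786-69388246 on the plus strand, Ramp3 at chr11:6658521-6677475 on the plus strand and Rgs16 at chr1:153740349-153745468 on the plus strand. Synpo2 lies at chr3:123076519-123236149 on the minus strand and Plekhg1 at chr10:3740364-3967303 on the plus strand. Zic1 (chr9:91358058-91365810, minus strand) and Zic4 (chr9:91362413-91389348, plus strand) overlap head to head and share 60 bases of exon on opposite strands. The library kit does not mark strand, so reads in such shared bases cannot be assigned to 1 of the 2 genes. Rgs16 shares 236 exon bases, 10.09% of its exons, with the antisense transcript Gm28513, and Lef1 shares 1208 exon bases, 13.75% of its exons, with the antisense transcript Gm43352. The overlaps of Ramp3 with Gm11978 (101 bases), of Rora with Gm15511 (82 bases) and of Zic4 with Gm37477 (468 bases) were shorter relative to the gene.

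Because the genes moved together and 2 of them encode TCF/LEF factors, their promoters were searched for the core of the TCF/LEF motif. RefSeq start sites gave 15 windows for the 10 genes, each from 250 bases before to 50 bases after a start in assembly GRCm38.p6. The letters CTTTGA, or TCAAAG on the other strand, were found in 3 windows, of Lef1, Prkcd and Zic4. Over all 32851 RefSeq windows of that length, 16% held the same letters. The letters AGGTCA, a site bound by nuclear receptors such as RORA, were found on either strand in 0 of the 15 windows and in 16.3% of all windows. By gene, the TCF/LEF letters were in a window of 3 of the 10 genes and of 4911 of all 27025 genes. These counts were not tested and do not set the 10 genes apart. The 3 windows with the TCF/LEF letters are shown to give the matched letters. They are written from 5′ to 3′ on the strand of the gene, and capitals mark the matched letters. The Lef1 window is chr3:131156044-131156343 on the plus strand, the Prkcd window is chr14:30626159-30626458 on the minus strand and the Zic4 window is chr9:91368722-91369021 on the plus strand.
Lef1: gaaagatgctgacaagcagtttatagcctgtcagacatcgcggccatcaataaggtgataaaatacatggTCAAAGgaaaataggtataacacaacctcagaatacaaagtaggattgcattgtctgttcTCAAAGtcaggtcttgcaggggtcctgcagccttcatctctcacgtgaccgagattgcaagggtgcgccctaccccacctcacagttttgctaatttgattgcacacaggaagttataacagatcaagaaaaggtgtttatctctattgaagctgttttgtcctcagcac
Prkcd: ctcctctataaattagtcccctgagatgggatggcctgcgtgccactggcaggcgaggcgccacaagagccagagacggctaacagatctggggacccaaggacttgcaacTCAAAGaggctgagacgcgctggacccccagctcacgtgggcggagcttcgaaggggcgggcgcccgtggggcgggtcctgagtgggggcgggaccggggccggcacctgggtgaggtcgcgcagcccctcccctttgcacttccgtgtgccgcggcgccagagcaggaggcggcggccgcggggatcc
Zic4: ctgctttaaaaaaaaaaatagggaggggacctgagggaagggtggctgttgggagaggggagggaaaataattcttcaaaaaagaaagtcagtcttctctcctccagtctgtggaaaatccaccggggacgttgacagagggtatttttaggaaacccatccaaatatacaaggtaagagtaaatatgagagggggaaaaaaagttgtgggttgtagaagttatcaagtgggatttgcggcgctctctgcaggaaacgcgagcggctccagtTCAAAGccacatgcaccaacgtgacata
The Lef1 window held 2 matches and the other windows 1 each. The Lef1 and Zic4 windows belong to start sites inside the annotated gene, downstream of its first base. These matches describe the letters of the windows and do not show binding.

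Tcf7l2, the general thalamic marker, was low in the prefrontal cortex and high but variable in the other regions. Its lowest, median and highest levels were 3.56, 4.47 and 5.88 CPM in the prefrontal cortex (n = 29), 23.4, 50.2 and 78.1 CPM in the hippocampus (n = 29), and 17.7, 33.1 and 168 CPM in the hypothalamus (n = 28). The cortical libraries overlapped with neither of the other regions. Lef1, its relative, had 5.03, 7.61 and 11.1 CPM in the prefrontal cortex, 8.53, 14.4 and 22.1 CPM in the hippocampus, and 6.79, 8.82 and 44.4 CPM in the hypothalamus. Its ranges overlapped between all pairs of regions.

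Among the genes of sensory relay nuclei, Prkcd had the widest spread. Its levels were 5.18, 8.15 and 11.9 CPM in the prefrontal cortex, 59.6, 93.2 and 211 CPM in the hippocampus, and 11.3, 37.4 and 409 CPM in the hypothalamus. The hippocampus of every animal was above all cortical libraries, whereas hypothalamic libraries reached both lower and higher than the hippocampal range. Rora, which cortical neurons also express, had 67.4, 86.4 and 125 CPM in the prefrontal cortex, 86.6, 125 and 179 CPM in the hippocampus, and 42.1, 66.1 and 250 CPM in the hypothalamus. The median of Rora was thus lowest in the hypothalamus although the single highest library was hypothalamic.

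The signalling genes Ramp3 and Rgs16 differed from each other. Ramp3 had 5.31, 8.84 and 10.6 CPM in the prefrontal cortex, 8.64, 12.3 and 26.4 CPM in the hippocampus, and 3.44, 7.41 and 56.7 CPM in the hypothalamus, with overlapping ranges throughout. Rgs16 had 3.02, 7.28 and 10.1 CPM in the prefrontal cortex, 11.5, 18.6 and 31.3 CPM in the hippocampus, and 14.8, 23 and 76.3 CPM in the hypothalamus. The cortical libraries of Rgs16 lay below all others.

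The cytoskeletal genes Synpo2 and Plekhg1 followed the order of Tcf7l2. Synpo2 had 5.14, 6.06 and 11.4 CPM in the prefrontal cortex, 19.4, 29.9 and 62.3 CPM in the hippocampus, and 9.62, 20.1 and 137 CPM in the hypothalamus. Plekhg1 had 8.61, 10.9 and 17.4 CPM in the prefrontal cortex, 25.9, 39.8 and 74.4 CPM in the hippocampus, and 14.9, 25.2 and 138 CPM in the hypothalamus. For both genes the hippocampus did not overlap with the prefrontal cortex, and the hypothalamus overlapped with both.

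The Zic genes were highest in the hypothalamus. Zic1 had 11.3, 17.6 and 25.9 CPM in the prefrontal cortex, 34.3, 69.9 and 338 CPM in the hippocampus, and 72.6, 96.0 and 179 CPM in the hypothalamus. Zic4 had 2.99, 4.18 and 5.59 CPM in the prefrontal cortex, 5.74, 8.75 and 20.3 CPM in the hippocampus, and 11, 14.4 and 20.7 CPM in the hypothalamus. The highest Zic1 library was nevertheless a hippocampal one, of female 23.

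**Figure D1:**
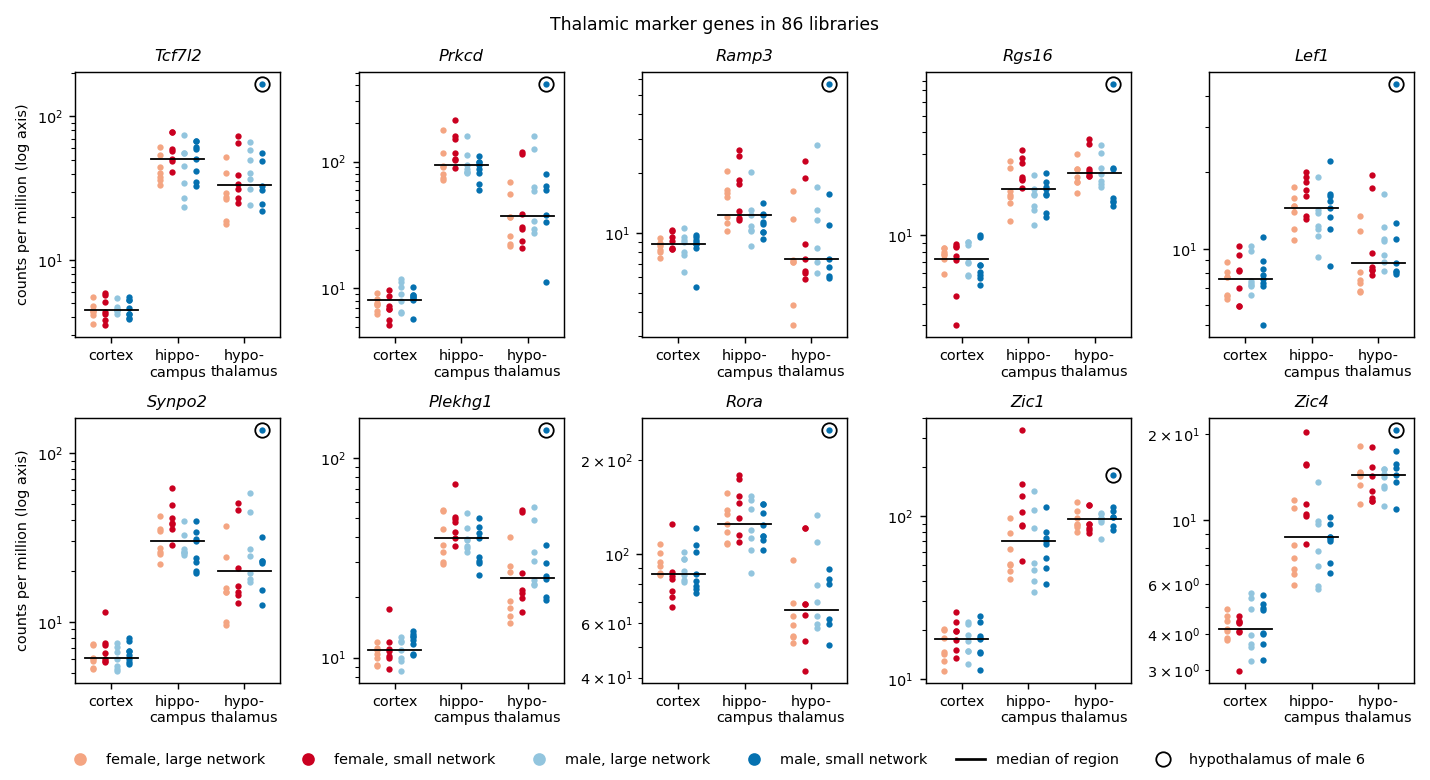
Levels of the 10 genes in the 86 libraries, in CPM on a log axis, by region, with 1 point per library coloured by sex and network size and a line at the median of the region. The circled hypothalamus of male 6 was the highest hypothalamic library of all 10 genes, and cortical libraries lay below the hippocampal ones without overlap for 7 genes. The share of all genes without overlap between these regions was not computed.

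Levels of different genes were compared per kilobase of exon. By the median CPM per kilobase, Rora (6.61) and Ramp3 (6.41) were the most abundant of the 10 in the prefrontal cortex, and Zic4 (0.404) and Synpo2 (0.463) the least. In the hippocampus Prkcd (16.8) and Zic1 (12.3) led, and in the hypothalamus Zic1 (16.9) and Rgs16 (9.83) led. Tcf7l2 stood at 0.509 in the prefrontal cortex, 5.72 in the hippocampus and 3.77 in the hypothalamus. In the hippocampus the ranges of Prkcd, 10.7 to 38.1, and Zic1, 6.03 to 59.4, overlapped, so their order did not hold in every library.

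The regions were compared in 1 fit over the 28 animals with 3 libraries each, with the animal as a block, by the quasi-likelihood test of edgeR with Benjamini-Hochberg adjustment over 18753 genes. Relative to the prefrontal cortex, all 10 genes were higher in the hippocampus, against a background of 38.5% of all genes called higher and 33% called lower. The log2 fold change was 3.73 for Prkcd (SE 0.21) and 3.45 for Tcf7l2 (SE 0.14), the largest of the set. It was 0.68 for Ramp3 (adjusted p = 0.000128) and 0.52 for Rora (adjusted p = 6.1e-06), the smallest. The median over the 10 genes was 1.67, beside 0.0224 over all genes. Each gene was higher in the hippocampus in 29 of 29 animals, except Ramp3 in 28 and Rora in 26. Such counts by animal were not made over all genes.

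In the hypothalamus relative to the prefrontal cortex, 8 of the 10 genes were higher and Rora was lower, where 42.2% of all genes were called higher and 39.1% lower. Tcf7l2 differed by a log2 fold change of 3.09 (SE 0.14), Prkcd by 2.69 (SE 0.21) and Zic1 by 2.53. Ramp3 was not called (log2 fold change 0.27, SE 0.16, adjusted p = 0.119). Rora had a log2 fold change of -0.26 (SE 0.10, adjusted p = 0.0145) and was higher in the hypothalamus in 8 of 28 animals. Both rested on the animal block: without it, Ramp3 was called higher (log2 fold change 0.46, SE 0.16, edgeR adjusted p = 0.00964) and Rora was not called (-0.18, SE 0.10, edgeR adjusted p = 0.105), so that 9 genes were higher and 0 lower. The median of the 10 genes was 1.74, beside 0.0184 over all genes.

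Between the hypothalamus and the hippocampus the set split into 7 genes that were lower and 3 that were higher in the hypothalamus, where 39.5% of all genes were lower and 36.6% higher. Prkcd (log2 fold change -1.05, SE 0.19, adjusted p = 2.59e-06) and Rora (-0.78, SE 0.10, adjusted p = 4.01e-10) were furthest below the hippocampus. Tcf7l2 (-0.36, SE 0.12, adjusted p = 0.00766), Plekhg1, Lef1, Synpo2 and Ramp3 were lower by smaller amounts. The 3 higher genes were Rgs16 (0.33, SE 0.09), Zic1 (0.38, SE 0.12) and Zic4 (0.61, SE 0.08, adjusted p = 2.66e-09). Zic4 was higher in the hypothalamus in 25 of 28 animals and Prkcd in 6. The ranges of the libraries overlapped for all 10 genes. Without the animal block, 6 of the 10 calls held, and Tcf7l2 (adjusted p = 0.109), Ramp3 (adjusted p = 0.207), Synpo2 (adjusted p = 0.232) and Zic1 (adjusted p = 0.165) were no longer called.

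Levels of the 10 genes rose and fell together from animal to animal in the hypothalamus, less tightly in the hippocampus and little in the prefrontal cortex. Pearson's r of log2 levels was computed for the 45 pairs of genes in each region, with permutation tests of 100000 resamples and Benjamini-Hochberg adjustment over the pairs of the 3 regions together. In the hypothalamus the median r of the 45 pairs was 0.850, from 0.418 to 0.975, and 45 pairs passed an adjusted p of 0.05 (38 by Spearman's rho). In the hippocampus the median was 0.620, from 0.208 to 0.944, and 37 pairs passed (37 by rho). In the prefrontal cortex it was 0.0676, from -0.508 to 0.692, and 9 pairs passed, 8 of them positive (10 by rho). The difference in median r between the regions was not tested. The genes were chosen with earlier results of these data known, so the correlations describe the set.

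The closest pair in the hypothalamus was Synpo2 and Plekhg1, with r = 0.975 and rho = 0.938 (n = 28 animals, adjusted permutation p = 3.07e-05 for r and 4.35e-05 for rho). These rest on the smallest p that 100000 resamples can give, 1e-05. Without the 2 libraries farthest from the median of Synpo2, r was 0.953. Ramp3 with Synpo2 (r = 0.971) and Plekhg1 with Rora (r = 0.972) were nearly as close. Tcf7l2 and Lef1, the TCF/LEF pair, had r = 0.930 in the hypothalamus, 0.732 in the hippocampus and 0.692 in the prefrontal cortex, and passed in each. The loosest hypothalamic pair was Rora and Zic4, with r = 0.418 (adjusted permutation p = 0.0401), rho = 0.201 (adjusted permutation p = 0.363) and r = 0.131 without the 2 farthest libraries, so this relation rested on those libraries.

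In the hippocampus the closest pairs were Zic1 with Zic4 and pairs among the other 8 genes. Of the 16 pairs of a Zic gene with another gene, 8 passed as well, with r up to 0.756. Zic1 and Zic4 had r = 0.944 and rho = 0.936 (n = 29 animals), and r = 0.915 without the 2 farthest libraries. Among the others, Prkcd was close to Synpo2 (r = 0.904, rho = 0.881) and to Ramp3 (r = 0.886, rho = 0.825), and Synpo2 to Plekhg1 (r = 0.898, rho = 0.902). Tcf7l2 and Prkcd were more loosely related, with r = 0.504 in the hippocampus and 0.874 in the hypothalamus. The 8 hippocampal pairs that did not pass all joined a Zic gene with Ramp3, Rgs16, Lef1 or Plekhg1, and the lowest was Ramp3 with Zic1 (r = 0.208, adjusted permutation p = 0.329). Over the 16 pairs of a Zic gene with another gene, the median r was 0.407 in the hippocampus, 0.657 in the hypothalamus and 0.107 in the prefrontal cortex. Over the 28 pairs of the other 8 genes, a division made after the values were seen, the medians were 0.713, 0.926 and 0.0302.

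In the prefrontal cortex 9 of 45 pairs passed, among them Zic1 with Zic4 and the pairs given here. Tcf7l2 was related to Lef1 and to Plekhg1 (r = 0.524), Prkcd to Rgs16 (r = 0.510) and to Zic4 (r = 0.516), and Synpo2 to Plekhg1 (r = 0.639) and to Zic1 (r = 0.409). Ramp3 and Rora moved in opposite directions (r = -0.508, rho = -0.568, adjusted permutation p = 0.00965). Tcf7l2 and Prkcd, positively related in both other regions, had r = 0.0206. The cortical relation of Synpo2 and Plekhg1 fell to r = 0.356 without the 2 farthest libraries.

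The correlations were repeated within each combination of sex and network size. In the hypothalamus 45 of 45 pairs were positive in each of the 4 groups, with group medians of 0.843 in females with large network size, 0.933 in females with small network size, 0.911 in males with large network size and 0.938 in males with small network size. In the hippocampus 36 of 45 pairs were positive in each group, and in the prefrontal cortex 7 of 45. The hippocampal group medians were 0.734, 0.427, 0.703 and 0.661 in the same order. Without the hypothalamus of male 6, the median r of the hypothalamic pairs was 0.748.

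**Figure D2:**
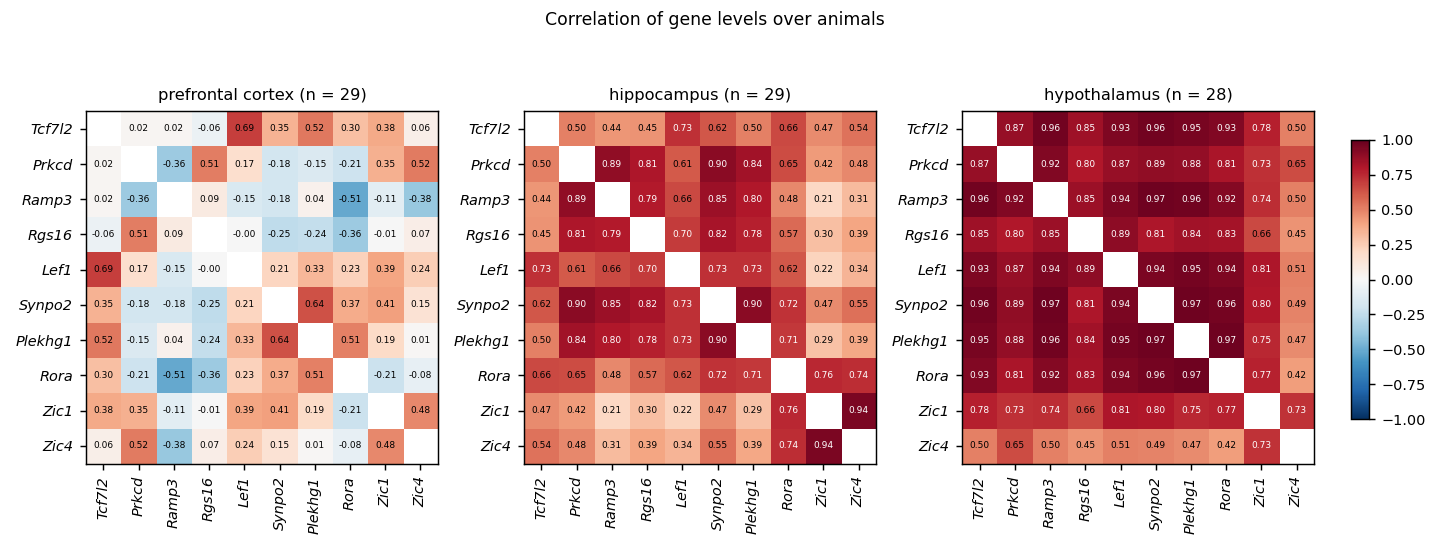
Pearson's r between log2 levels of the 10 genes over the animals of each region, shown from -1 to 1 on the colour scale. The hypothalamus is positive in 45 of 45 pairs, and the prefrontal cortex holds few related pairs. The hippocampus is positive, with a lower median r for pairs of a Zic gene with another gene.

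Single libraries carried much of the hypothalamic range. Male 6 had the highest hypothalamic level of all 10 genes, from 1.44-fold (Zic4) to 10.9-fold (Prkcd) the median of the region. The 10 genes summed to 1480 CPM in this library, compared with 249 to 670 CPM in the other 27. Females 21 and 23 and male 29 came next, with sums of 615, 622 and 670 CPM, and median ratios to the regional median of 2.06, 2.08 and 2.02. Female 21 was among the 5 highest libraries for all 10 genes, female 23 for 9 and male 29 for 8. These 3 animals belong to different groups, the females to small and the male to large network size.

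The same libraries ordered other marker lists too. A further list of thalamic genes, which shares no gene with the 10, summed to 1338 CPM in the hypothalamus of male 6 and to 968, 947 and 931 CPM in male 29, female 21 and female 23, the 4 highest of the region. The list of hypothalamic neuron genes summed to 420 CPM in male 6, 282 in male 29, 328 in female 21 and 558 in female 23, compared with a median of 878 over all 28 libraries. The suprachiasmatic nucleus list was at its lowest in male 6, with 11.6 CPM. Its median sum was 52.1 CPM in the prefrontal cortex, 26.6 CPM in the hippocampus and 18.1 CPM in the hypothalamus, so it is not specific to that nucleus. The oligodendrocyte list was at its highest in male 6, with 7225 CPM. Oligodendrocyte genes were also high in females 21 (6859 CPM) and 23 (6276 CPM), but male 29 had 5121 CPM, close to the regional median of 4992. The medial habenula list, whose tissue adjoins the thalamus, was lowest in male 6 (78.6 CPM) and did not follow the 10 genes. Slc5a7 (34.98 CPM) and Tac2 (23.9 CPM) had the highest hypothalamic medians of this list, with 0.337 CPM for Pou4f1, a defining habenular gene. The sum therefore does not measure habenular tissue in the hypothalamus. The total count of male 6 was 47175197, the 9th highest of 28. How much each of these cell types or the depth contributed to the levels was not tested.

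A low hypothalamic neuron list did not always come with high thalamic genes. The hypothalamus of male 10, an animal with small network size, had the lowest sum of that list (143 CPM), and also the lowest Prkcd (11.3 CPM), Rgs16 (14.8 CPM) and Zic4 (11 CPM) of the region. The 10 genes summed to 321 CPM there, close to the median of 323. This library had the highest sum of smooth muscle and pericyte genes, 293 CPM.

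In the hippocampus 2 females with small network size were highest, each for different genes. Female 8 led for Prkcd (211 CPM), Ramp3 (26.4 CPM), Rgs16 (31.3 CPM), Synpo2 (62.3 CPM) and Plekhg1 (74.4 CPM), and had the highest sum of medial habenula genes (111 CPM). Female 23 led for Zic1 (338 CPM), Zic4 (20.3 CPM) and Rora (179 CPM), while its Ramp3 (11.7 CPM) and Plekhg1 (39.8 CPM) were near the regional medians. Its medial habenula list was the lowest of the region, at 65.3 CPM. In this list Nwd2 had the highest hippocampal median (44.5 CPM), with 4.29 CPM for Pou4f1. Nwd2 was higher still in the prefrontal cortex (57.3 CPM), so these sums do not measure habenular tissue. Both libraries were high in the further thalamic list, with 773 CPM in female 23 and 702 CPM in female 8, the 2 highest of 29. The sums of the 10 genes were 847 and 809 CPM, against a median of 482.

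**Figure D3:**
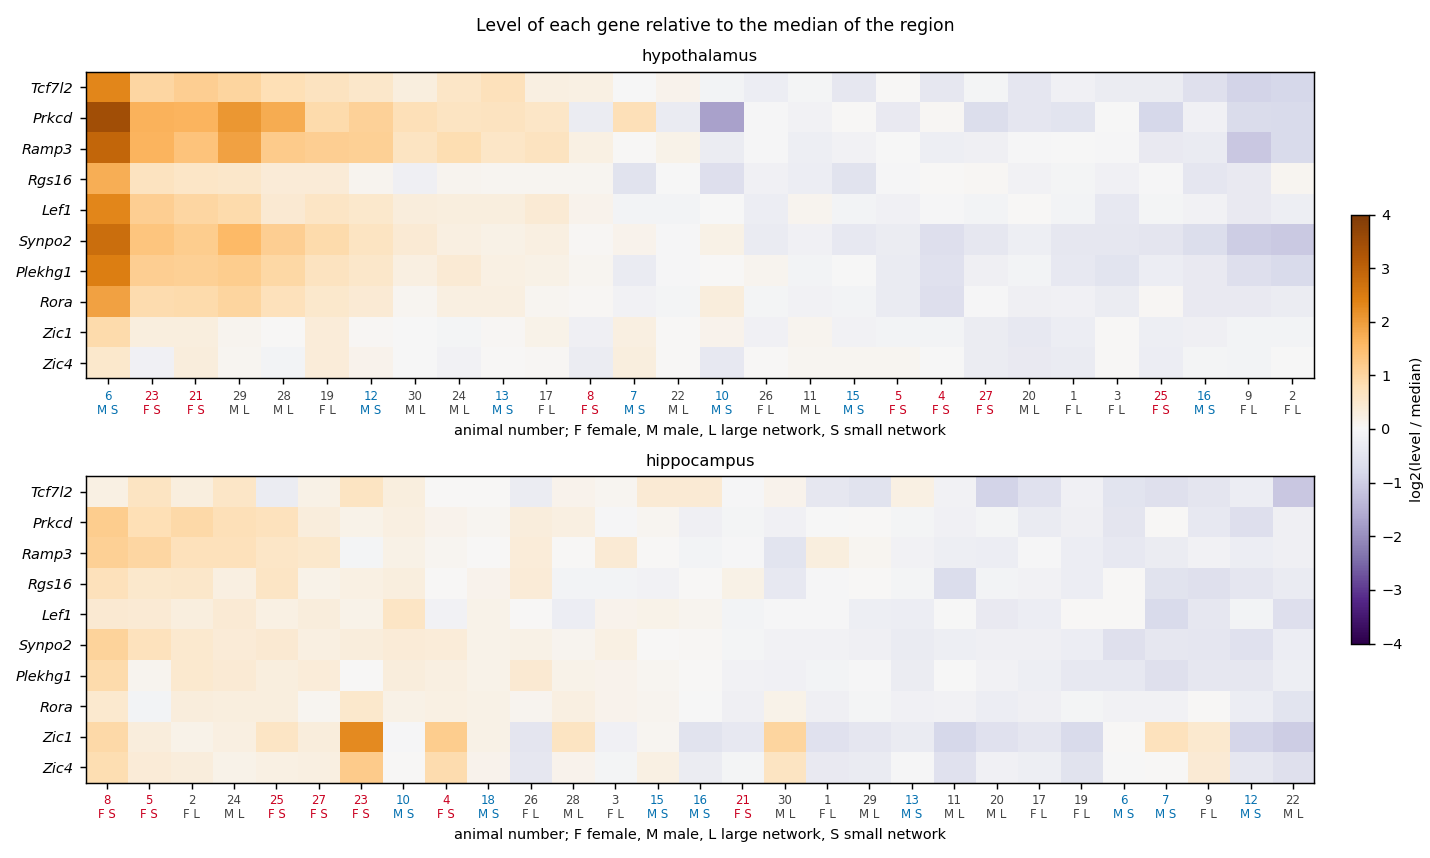
Log2 ratio of each gene's level to the median of its region, for the hypothalamus (top) and the hippocampus (bottom), with genes as rows and libraries as columns, labelled by animal number and group. Whole columns of the hypothalamus are high or low together, led by male 6, and in the hippocampus the rows of Zic1 and Zic4 depart from the others, most in female 23.

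A shared level between regions of the same animal was not detected for any of the 10 genes. The level of each gene was correlated between regions of the same animal, which gave 30 relations, and 0 passed an adjusted p of 0.05. The smallest adjusted permutation p was 0.140 for r and 0.350 for rho. Between the hippocampus and hypothalamus 8 of 10 genes had a negative r, with a median of -0.146, and Prkcd was the lowest (r = -0.373, rho = -0.319, adjusted permutation p = 0.307). Between the prefrontal cortex and hippocampus the median r was 0.0954, with the highest for Zic1 (0.470), and between the prefrontal cortex and hypothalamus it was 0.196, with the highest for Lef1 (0.479). Male 6, highest in the hypothalamus, ranked 28th of 29 for Prkcd in the hippocampus (67.0 CPM) and had the lowest hippocampal Synpo2 (19.4 CPM). Female 23 had the highest hippocampal sum of the 10 genes, but its hippocampus was among the 5 highest for only 4 of them. It ranked 10th for Prkcd and 8th for Synpo2 there. The hypothalamus of female 23 was among the 5 highest for 9 genes, but ranked 22nd for Zic4.

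Genes of the thalamus outside the set followed Tcf7l2 in the same regions. The further list holds Slc17a6, a vesicular glutamate transporter of subcortical neurons, the developmental regulators Gbx2, Shox2 and Lhx9, the axon guidance gene Ntng1, the calcium channel gene Cacna1g, the calcium-binding protein gene Calb2, and Tnnt1 and Amotl1. The 9 genes had positive r with Tcf7l2 in the hypothalamus, from 0.475 (Calb2) to 0.972 (Ntng1), with a median of 0.861. In the hippocampus they were positive for 9 of 9, from 0.441 (Tnnt1) to 0.914 (Shox2), with a median of 0.582. Of the 7 genes measurable in the prefrontal cortex, 6 were positive, with a median of 0.133. These values share libraries and depth and are given as a description.

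The defining transcription factors of the further list were near 0 in the prefrontal cortex and present in both other regions. Gbx2 had medians of 0.0758 CPM in the prefrontal cortex, 1.65 CPM in the hippocampus and 3.16 CPM in the hypothalamus. Shox2 had 0.0628, 17.7 and 5.33 CPM, and Lhx9 had 0.176, 19.7 and 6.62 CPM, in the same order. By the region fit, 8 of 9 genes were higher and Cacna1g was lower in the hippocampus than in the prefrontal cortex. In the hypothalamus 9 of 9 were higher than in the prefrontal cortex, and 5 were higher and 4 lower than in the hippocampus. Of all genes, 38.5%, 42.2% and 36.6% were higher in these comparisons, in the same order, and 33%, 39.1% and 39.5% were lower. Pou4f1, a defining gene of the medial habenula, had a median of 4.29 CPM in the hippocampus, 0.337 CPM in the hypothalamus and 0.125 CPM in the prefrontal cortex.

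Markers of other cell types took other directions. In the hypothalamus, r with Tcf7l2 was negative for 9 of 9 hypothalamic neuron genes (median -0.436), for 6 of 6 striatal projection neuron genes (median -0.479) and for 4 of 5 suprachiasmatic genes (median -0.617). It was positive for 6 of 6 oligodendrocyte genes in the hypothalamus (median 0.712) and in the hippocampus (median 0.467), but not in the prefrontal cortex (median -0.0156). In the hippocampus, r was negative for 4 of 6 hippocampal principal neuron genes (median -0.314) and 4 of 6 cortical projection neuron genes (median -0.377), and positive for 7 of 8 medial habenula genes (median 0.387). The part of oligodendrocytes in the levels was not tested.

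Relatives and targets of the TCF/LEF genes did not move as a block. Of the 13 paralogues of the 10 genes, 6 had positive and 7 negative r with Tcf7l2 in the hypothalamus, with a median of -0.0518. The hippocampus was above the prefrontal cortex for 7 paralogues and below it for 4, where 38.5% of all genes were higher and 33% lower. The hypothalamus was above the prefrontal cortex for 7 and below it for 6, where these shares were 42.2% and 39.1%. It was above the hippocampus for 4 and below it for 6, where they were 36.6% and 39.5%. Of 8 Wnt target and feedback genes, 6 were positive with Tcf7l2 in the hypothalamus (median 0.416), led by Nkd1, a feedback inhibitor of Wnt signalling, with r = 0.918. In the Wnt list, 4 of 8 genes were higher and 2 lower in the hippocampus than in the prefrontal cortex. This stands beside 38.5% and 33% of all genes, and these counts were not tested.

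**Figure D4:**
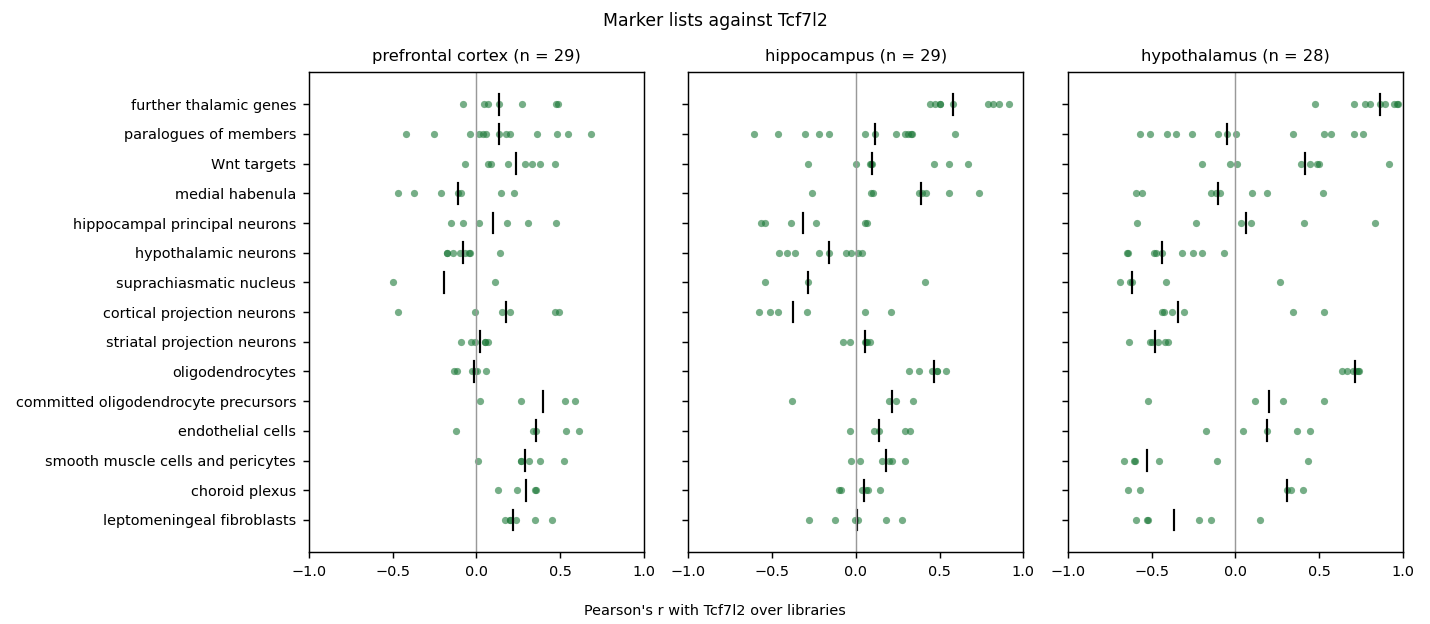
Pearson's r of each gene of a marker list with Tcf7l2 over the libraries of a region, with 1 row per list, 1 point per gene and a bar at the median of the list. Further thalamic and oligodendrocyte genes lie to the right in the hypothalamus and hippocampus, and hypothalamic, striatal and most suprachiasmatic genes lie to the left in the hypothalamus.

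Over all genes tested outside the 10, the pattern most like that of Tcf7l2 in the hypothalamus belonged to Ntng1 (r = 0.972), Shox2 (r = 0.966), 9530056K15Rik (r = 0.965), Epn3 (r = 0.948) and Grid2ip (r = 0.947), over 28 libraries and 18752 genes. In the hippocampus it belonged to Shox2 (r = 0.914), Slc17a6 (r = 0.857), Kcnj10 (r = 0.823), Nacc2 (r = 0.822) and Lhx9 (r = 0.817), over 29 libraries and 18597 genes. Shox2 was thus among the nearest in both regions. For Prkcd the nearest were Ptpn3 (r = 0.945), Rasd1 (r = 0.933), Rab37 (r = 0.919), Grid2ip (r = 0.916) and 9530056K15Rik (r = 0.912) in the hypothalamus, and Ntng1 (r = 0.903), Wnt9b (r = 0.885), D130058E05Rik (r = 0.849), Vav3 (r = 0.838) and Tnnt1 (r = 0.837) in the hippocampus. In the prefrontal cortex, Abtb2 (r = 0.738) was nearest to Tcf7l2, before Heg1, Slco2b1, Gm29361 and Afap1, and Baz1a (r = 0.716) was nearest to Prkcd, before Ankrd10, Sap30, Ugdh and Ccdc43, and none of these is in the thalamic lists.

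Network size was compared within each sex and region, as small relative to large social network size, to ask whether the levels of thalamic genes differed with gregariousness. By the edgeR quasi-likelihood test with Benjamini-Hochberg adjustment over all genes, 0 of the 10 genes were called in any of the 6 comparisons. The share of all genes called was 0.0113% in females and 0% in males in the prefrontal cortex, 0% in females and 0% in males in the hippocampus, and 0.00552% in females and 0% in males in the hypothalamus. At an unadjusted p of 0.05, 1698 and 448 genes passed in the prefrontal cortex of females and males, 2174 and 697 in the hippocampus, and 1339 and 524 in the hypothalamus. DESeq2 called 0 of the 10 genes too, with Zic4 in the female hippocampus the nearest (adjusted p = 0.0627). In each of the 60 combinations of a gene and a comparison, the libraries of the groups overlapped. How often this held over all genes was not computed.

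The largest differences were seen in the hippocampus of females. All 10 log2 fold changes were positive, from 0.18 (Rora) to 1.16 (Zic1), with a median of 0.384, beside 0.00555 over all genes. In females with large network size Zic1 ran from 41.1 to 97.4 CPM (median 50.8), and in those with small network size from 53.1 to 338 CPM (median 106). Its log2 fold change of 1.16 (SE 0.32) had an adjusted p of 0.249 by edgeR, and was 0.77 to 1.31 when each animal was left out in turn. The groups overlapped, and the upper end was set by female 23.

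Zic4 had 5.97, 7.42 and 11.8 CPM as the lowest, median and highest of females with large network size and 8.27, 11.4 and 20.3 CPM with small network size (log2 fold change 0.67, SE 0.20, edgeR adjusted p = 0.249). Tcf7l2 had 33.6, 40.7 and 61.0 CPM compared with 40.8, 57.2 and 78.1 CPM (0.42, SE 0.16, edgeR adjusted p = 0.311), and Synpo2 had 22, 27.3 and 42.2 CPM compared with 28.6, 38.4 and 62.3 CPM (0.45, SE 0.16, edgeR adjusted p = 0.298). In all 3 genes the group with small network size had the higher median, with overlap. At an unadjusted p of 0.05, 5 of the 10 genes passed, where 12.2% of all genes did. In the further thalamic list 9 of 9 genes had a positive log2 fold change, of which 0 were called, and its sum ran from 453 to 625.2 CPM with a median of 504 in large and from 496 to 773 CPM with a median of 616 in small network size. Of the 13 paralogues 7 were positive, from -0.43 to 1.02 with a median of 0.0767, and 0 were called. Zic2 (log2 fold change 1.02, edgeR adjusted p = 0.268) and Zic5 (0.85, edgeR adjusted p = 0.249), named after their values were seen, were among the positive ones. Other lists had the opposite sign in the same comparison, with 0 of 6 choroid plexus genes (median -0.300) and 1 of 6 cortical projection neuron genes (median -0.176) positive, and 0 called in either. The part of these tissues and of the amount of thalamic tissue in the differences was not tested.

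In the hippocampus of males, 5 of 10 log2 fold changes were positive, from -0.20 to 0.20. The difference between the sexes was tested directly, and 0 of the 10 genes were called in the prefrontal cortex, hippocampus or hypothalamus, where 0% of all genes were called in each. At an unadjusted p of 0.05, 769, 1371 and 1152 genes passed in these 3 tests. In the hippocampus all 10 genes had a more positive log2 fold change in females than in males, by 1.26 for Zic1 (SE 0.46, unadjusted p = 0.0103, edgeR adjusted p = 0.641), 0.67 for Zic4 and 0.61 for Prkcd. DESeq2 called 0 of the 10 in these tests as well. In the hypothalamus the median difference over the 10 genes, females minus males, was 0.057, with 7 of 10 positive. Without male 6 it was 0.693, with 8 of 10 positive and 0 called by edgeR.

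In the hypothalamus the result for males turned on 1 library. All 10 genes had a positive log2 fold change in males with small relative to large network size, from 0.15 (Rgs16) to 0.49 (Prkcd, SE 0.64), and 0 were called. Prkcd ran from 27.4 to 158 CPM with a median of 58.3 in males with large network size, and from 11.3 to 409 CPM with a median of 59.6 with small network size. Tcf7l2 ran from 24.3 to 66.9 CPM with a median of 40.6 in large, and from 21.9 to 168 CPM with a median of 32.6 in small network size. The medians were therefore nearly equal or in the opposite order. Without male 6, 8 of the 10 log2 fold changes were negative, with a range over the 10 genes of -0.58 (Prkcd) to 0.09 (Zic4), and 0 were called.

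In the hypothalamus of females, 8 of 10 log2 fold changes were positive, from -0.08 (Zic4) to 0.50 (Prkcd). The 2 negative ones were Zic1 and Zic4. Single animals moved these values: without female 23, the log2 fold change was 0.18 for Prkcd, 0.13 for Ramp3 (from 0.42) and 0.21 for Synpo2 (from 0.48), and without female 21 it was 0.19, 0.22 and 0.26. In the same comparison 6 of 6 oligodendrocyte genes (median 0.277) and 0 of 6 striatal projection neuron genes (median -0.415) had a positive log2 fold change, 0 of them called, and their part in the result was not tested. Females 21 and 23, both of small network size, held the highest sums of the females. The group sums of the 10 genes had nearly equal medians, 296 CPM with large and 294 CPM with small network size, while the highest library was at 495 CPM in the first and 622 CPM in the second. In the prefrontal cortex, log2 fold changes ran from -0.14 to 0.27 in females and from -0.11 to 0.15 in males, with 6 and 5 of 10 positive.

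**Figure D5:**
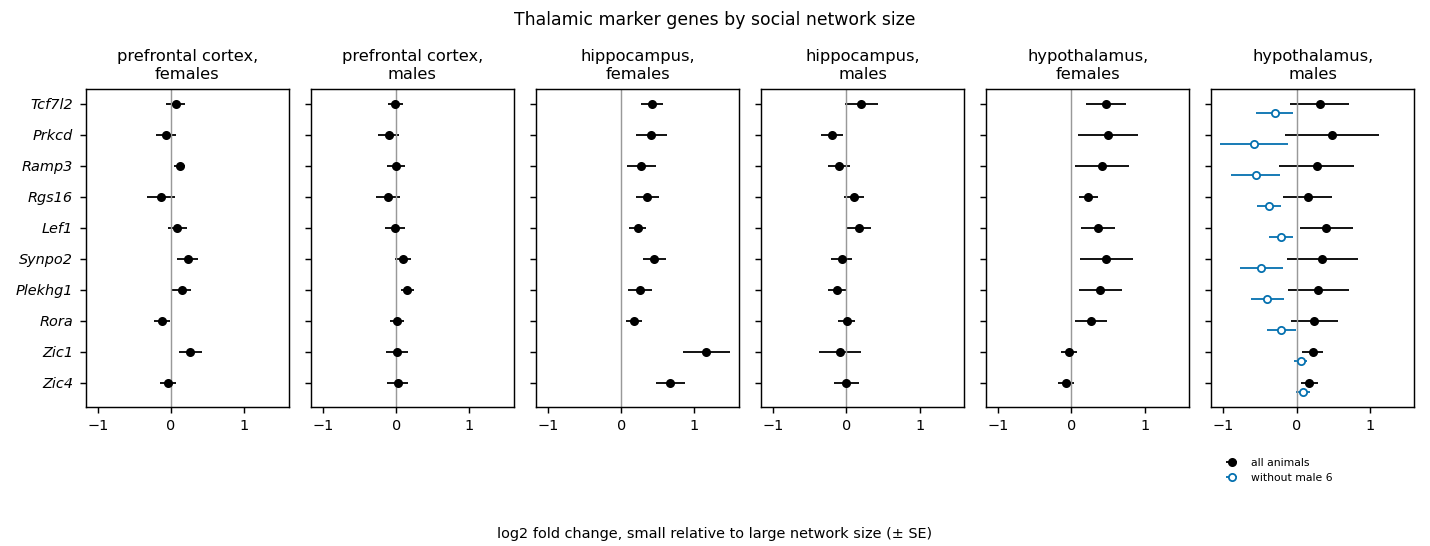
Log2 fold change of the 10 genes in small relative to large network size, with bars of 1 SE, for each sex and region, and for hypothalamus of males also without male 6 (open points). No gene passed the adjusted threshold, the female hippocampus is positive for all 10 genes, and 8 of 10 points of the male hypothalamus move below 0 without male 6.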

How the data were processed

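RNA was extracted from punches of frozen brain, and libraries were made with a kit that does not mark strand. The authors mapped reads with STAR to the mouse assembly mm10 and deposited raw counts per gene from HTSeq, 1 column per library. The annotation release and strand setting were not given in the sources used here. Total counts per library were 33711824 to 81865801.

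Counts were analysed with R 4.3.3 and edgeR 4.0.16. Genes were kept by filterByExpr (minimum count 10, minimum total 15, proportion 0.7) and libraries were scaled by TMM. Quasi-likelihood tests compared network size within each sex and region, with no covariates, sex by network size within each region, and the regions with the animal as a block, at an adjusted p of 0.05. Each library of a group came from a different animal. The animal number in the labels pairs the regions, since the punches came from the same brain. Deviations of each gene from its mean over the region correlated in same-animal libraries with a median r of 0.479 to 0.489. In other pairs the median r was -0.0217 to -0.0145. Differences by sex and network size remain in these values. Levels are CPM scaled by TMM over all 86 libraries, and 0.1 was added before taking log2 for correlations. DESeq2 1.42.0 was the alternative test. The edgeR tests and the DESeq2 test of network size within a sex were checked on simulated counts with known changes. The permutation test of r was checked on simulated normal values.

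All 10 genes were named in every comparison, with the genes of marker lists and, for Tcf7l2 and Prkcd, the 5 genes with the highest r outside the set. The 10 genes and the lists were chosen with earlier results of these data known.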

Additional observations from a re-analysis of the deposited data

Results flagged for a closer look

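A library was singled out where its distance from the nearest library of its group, relative to the range of the group, passed Dixon's 95% critical value. Of the groups of a gene, region, sex and network size, 18.3% held such a library, where chance gives about 1 in 20 groups. The genes of the set are correlated, so these are not independent.

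The hypothalamus of male 6 was singled out for 9 of the 10 genes, all but Zic4, as the highest of its group. Its levels were 168 CPM for Tcf7l2, 409 CPM for Prkcd, 56.7 CPM for Ramp3, 76.3 CPM for Rgs16, 44.4 CPM for Lef1, 137 CPM for Synpo2, 138 CPM for Plekhg1, 250 CPM for Rora and 179 CPM for Zic1.

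Another 13 values were spread over other libraries. In the hypothalamus they were the highest Rora of females with large network size (95.5 CPM, female 19) and the lowest Zic1 of males with large network size (72.6 CPM, male 20). In the hippocampus they were Zic1 of female 23 (338 CPM), Plekhg1 of female 8 (74.4 CPM), Prkcd of female 2 (178 CPM), and Prkcd (159 CPM) and Ramp3 (20.3 CPM) of male 24, each the highest of its group. In the prefrontal cortex they were the highest Synpo2 (11.4 CPM), Plekhg1 (17.4 CPM) and Rora (125 CPM) in female 8, the highest Tcf7l2 in male 11 (5.49 CPM), and the lowest Ramp3 in male 7 (5.31 CPM) and Zic4 in female 27 (2.99 CPM).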

How the results depend on the processing

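No gene of the set was called for network size under any alternative, including 86 fits that each left out 1 animal (lowest adjusted p 0.126). In the female hippocampus 0 of 10 log2 fold changes turned sign in 14 such fits. In the 4 comparisons other than this one and the male hypothalamus, 14 of 40 did in at least 1 of 58 fits, with a largest log2 fold change of 0.103.

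Counts over all genes depended on the tool. In the female prefrontal cortex 2 genes were called, and 6 with all genes of at least 1 count, 5 with at least 10 counts in every library, 5 with robust fitting, 74 with DESeq2, 4 with the 4 groups in 1 fit, and 0 to 5 without single animals. In the male prefrontal cortex 0 became 2 with DESeq2, 1 in the 4-group fit and 0 to 1 without single animals. In the female hippocampus 0 became 1 with all genes and 95 with DESeq2. In the female hypothalamus 1 became 3 with all genes, 43 with DESeq2, 0 in the 4-group fit and 0 to 14 without single animals. In the male hypothalamus DESeq2 called 1. DESeq2 called 30 and 1 genes for sex by network size in the prefrontal cortex and hippocampus, where edgeR called 0.

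In the male hypothalamus, leaving out single animals moved the log2 fold change of Lef1 between -0.21 and 0.53, Plekhg1 between -0.40 and 0.47, Prkcd between -0.58 and 0.82, Ramp3 between -0.56 and 0.58, Rgs16 between -0.38 and 0.25, Rora between -0.21 and 0.40, Synpo2 between -0.48 and 0.61 and Tcf7l2 between -0.30 and 0.45, each negative only without male 6. DESeq2 gave -0.20 for Lef1 there, where it replaced the count of male 6, 2199, by 495.

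Without the animal as a replicate block, the genes of the set called between hypothalamus and hippocampus numbered 6 in place of 10. Between hypothalamus and prefrontal cortex, 9 were called with and without the block, but Ramp3 was gained as higher and Rora lost as lower. Between hippocampus and prefrontal cortex the block changed no call of the 10 genes. The network groups hold different animals, so no pairing applies to them.

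The median r of hypothalamic pairs, 0.850, was 0.738 as Spearman's rho and 0.711 without the 2 farthest libraries. It was 0.748 without male 6. Leaving out male 6 was chosen after seeing the data.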
